A study of Eublepharis macularius with 23 samples.

Results

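The genes described here are those of prostaglandin transport, synthesis, inactivation and sensing in the embryonic skin of the leopard gecko (*Eublepharis macularius*). The set holds 9 members of the 22064 genes counted, namely the transporters *SLCO2A1* and *ABCC4*, the cyclooxygenases *PTGS1* and *PTGS2*, the prostaglandin E synthases *PTGES* and *PTGES3*, the inactivating enzyme *HPGD* and the prostaglandin E2 receptors *PTGER2* and *PTGER4*. All 9 were found by symbol in both count tables. *SLCO2A1* was put on the list because it belongs to the genes that the study lists as different between homozygous and wild-type skin, so its values are given here as a description with no test. The other 8 members were chosen by their role, with earlier results of these data known.

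Hypome 1 is a recessive morph of captive leopard geckos with reduced black coloration. RNA was sequenced in bulk from the dorsal skin of 4 homozygous embryos (Hom), 3 heterozygous embryos (Het) and 2 wild-type embryos (WT) at embryonic day 40, and each library is 1 embryo. All 9 embryos came from the same pair of heterozygous parents and were collected over several seasons, so the groups share their parents and the wild-type group is 2 animals. A second table holds 3 libraries of embryos heterozygous for Hypome 3, another hypomelanistic morph, at the same embryonic day. The study read the genotypes from variants at the edges of the mapped interval, and the embryos were not sexed.

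Prostaglandins are short-lived lipid signals made from arachidonic acid. Phospholipases free the arachidonic acid from membranes, the cyclooxygenases convert it to prostaglandin H2, and terminal synthases turn that into prostaglandin E2 and its relatives. Prostaglandin E2 leaves the cell in part through ABCC4 and acts on neighbouring cells through G protein-coupled receptors, among them those encoded by *PTGER2* and *PTGER4*. The signal ends in a pair of steps, uptake into the cell by the transporter SLCO2A1 and oxidation inside the cell by the dehydrogenase HPGD. In humans, loss of either *SLCO2A1* or *HPGD* raises prostaglandin E2 and causes primary hypertrophic osteoarthropathy, a disease of bone and skin. In mammalian skin, keratinocytes release prostaglandin E2 after ultraviolet light, and melanocytes respond to it with longer dendrites.

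Depth was 32455975 to 52017277 counts for a Hypome 1 library, against 16826633 to 21208295 for one of Hypome 3. The unit counted may differ between these 2 sets, so the totals may not compare sequencing depth. Levels of Hypome 1 are given as CPM, which divides counts by the library size, with library sizes scaled by the TMM method (TMM CPM), and levels compared between genes as TPM, which divides by gene length first. The summed markers of keratinocytes, fibroblasts and melanophores were above 0 in every library. Hom replicate 1 stood apart from the other Hom libraries, with a TMM factor of 0.78 and a summed level of 7 muscle markers of 3476 TMM CPM, against 18.9 to 69.9 in the other 3 Hom libraries. Its TMM factor raises its TMM CPM relative to CPM of the library total, so a member whose groups overlap on one scale and not on the other is given on both. Het replicate 2 had the lowest summed level of the 6 keratinocyte markers, 2295 TMM CPM. In bulk skin, a smaller number of cells that express a gene and less RNA of that gene per cell cannot be told apart.

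On the assembly of the authors the 9 genes lie on 8 scaffolds, and no member overlaps another annotated gene. *SLCO2A1* spans 89529287 to 89612868 of scaffold 6 on the plus strand with 14 exon blocks. *HPGD* spans 70380714 to 70412782 of scaffold 10 on the minus strand with 7 exon blocks. *PTGS2* spans 31993463 to 32004494 of scaffold 5 on the minus strand with 10 exon blocks, and *PTGS1* spans 42074355 to 42103574 of scaffold 14 on the minus strand with 11 exon blocks. *PTGES* lies on scaffold 14 as well (69683998 to 69734527). *PTGES3* lies on scaffold 4 (11711172 to 11730205), *PTGER2* on scaffold 2 (16627675 to 16645412), *PTGER4* on scaffold 7 (118428491 to 118443603) and *ABCC4* on scaffold 3 (24095932 to 24289126).

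Per length, the members differed widely in level over the 12 libraries. *PTGES3*, which also serves as the HSP90 co-chaperone p23, had the highest mean, 176 TPM, above 97.2% of all genes. *PTGER4* followed with 26.2 TPM, *SLCO2A1* with 18.6 TPM, *HPGD* with 16.9 TPM and *PTGS2* with 11.8 TPM. The lower levels were those of *PTGS1* at 2.7 TPM, *PTGES* at 1.67 TPM, *ABCC4* at 0.583 TPM and *PTGER2* at 0.297 TPM. *PTGES3* was above *PTGER4*, and *PTGS2* above *PTGS1*, in all 12 libraries. The places of *SLCO2A1* and *HPGD* were the least settled, with *SLCO2A1* above *HPGD* in 8 of 12 libraries. The 4 libraries in which *HPGD* was above *SLCO2A1* were the 4 Hom libraries. Since *SLCO2A1* was chosen for its Hom level, this order is a description.

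**Figure D1:**
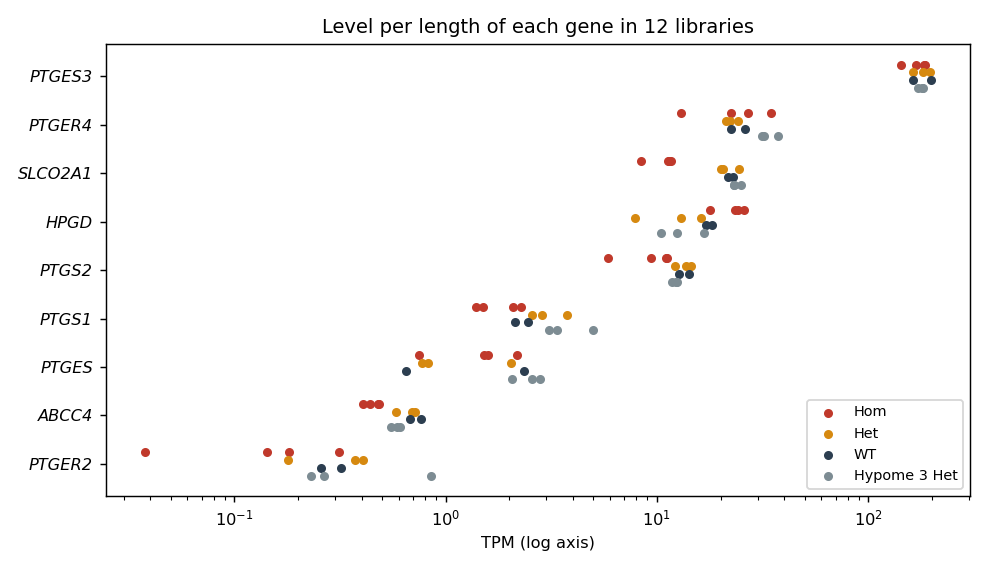
Level of each gene in TPM on a log axis, with 1 point per library of Hom, Het, WT and Hypome 3 Het embryos. *PTGES3* is near 176 TPM and *PTGER2* under 1 TPM, and the Hom points of *SLCO2A1* lie to the left of all other points of that gene.

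The transporter *SLCO2A1*, which carries prostaglandins into cells, was lower in Hom skin than in both other genotypes. Its levels were 20.75, 22.4, 18.81 and 19.86 TMM CPM in the 4 Hom libraries. They were 33.29, 35.18 and 32.88 TMM CPM in the 3 Het libraries and 36.96 and 33.1 TMM CPM in the 2 WT libraries. The highest Hom library was thus below the lowest library of either other group, and Het and WT overlapped. The means were 20.45 ± 1.52 TMM CPM in Hom (SD, n = 4), 33.78 ± 1.23 in Het (n = 3) and 35.03 ± 2.73 in WT (n = 2). The fitted log2 fold change was -0.78 for Hom over WT (SE 0.12), a fold of 0.584, and -0.72 for Hom over Het (SE 0.11). It was -0.05 for Het over WT (SE 0.13). Seasons were read from the library names of the study and joined by replicate number, a join that no source states. Within them, the difference of Hom from WT was -0.703 and -0.845 on the log2 scale in the 2 seasons that held both genotypes, each with 2 Hom libraries and 1 WT library. In the 1 season with both Hom and Het, Hom was below Het by a log2 difference of -0.677. These values are the reason that the gene was chosen and are not evidence of a difference.

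Within a genotype the coefficient of variation of *SLCO2A1* was 7.43% in Hom, 3.63% in Het and 7.79% in WT. In the 3 Hypome 3 Het libraries *SLCO2A1* was at 23.2, 25.0 and 23.0 TPM. In Hypome 1 it was at 8.41 to 11.7 TPM in Hom, 19.98 to 24.4 TPM in Het and 21.6 to 22.8 TPM in WT. The Hypome 3 embryos carry another morph and stand in another table, and no test was made between the morphs.

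*SLCO2A1* is known as a transporter of endothelial cells in mammals. All 16 genes of the endothelial list were in the table, and their summed level was 392.3 to 440 TMM CPM in Hom, 338 to 384 in Het and 379 to 403 in WT. In TPM it was 170.9 to 286.5 in Hom, 251.2 to 274.2 in Het and 269 to 279.9 in WT, with 3 of the 4 Hom libraries below both WT libraries. For Hom over WT, 0 of the 16 passed the threshold by edgeR and 0 by DESeq2 on the libraries compared (2.67% of all genes). At an unadjusted p under 0.05 by edgeR there were 2 (8.53% of all genes). For Hom over Het there were 0 by edgeR, 3 unadjusted (17.8% of all genes) and 2 by DESeq2 (6.55%). The unadjusted counts are near these shares and are not a result about the endothelial genes. Their median log2 fold change was 0.03 for Hom over WT and 0.05 for Hom over Het. *PECAM1*, an adhesion molecule of endothelial junctions, averaged 11.98 TMM CPM in Hom, 11.4 in Het and 12.5 in WT. The 3 markers at an unadjusted p under 0.05 by edgeR for Hom over Het went opposite ways. *ERG* was lower in Hom, at a mean of 7.609 TMM CPM against 14.02 in Het and 12.24 in WT. *VWF* was higher, at 17.8 in Hom against 10.01 in Het and 10.95 in WT. *ROBO4* was higher as well, at 106.2 in Hom against 73.01 in Het and 85.87 in WT. The summed level of 6 mural cell markers was 177 to 210 TMM CPM in Hom, 223 to 301 in Het and 198 to 219 in WT. This sum was lower in every Hom library than in every Het library, and Hom and WT overlapped. In TPM the sum was 85.5 to 129.8 in Hom, 143.9 to 197.6 in Het and 131.2 and 137.9 in WT. On that scale every Hom library was below all Het and WT libraries. *MCAM* held most of the sum in TMM CPM, at a mean of 122.5 in Hom, 208.1 in Het and 155.1 in WT. *PDGFRB* also had its lowest mean in Hom, *CSPG4* was between, and *ACTA2*, *TAGLN* and *MYH11* had their highest mean in Hom. The median log2 fold change of the 6 was 0.26 for Hom over WT and 0.16 for Hom over Het. The part of either marker list in the *SLCO2A1* values was not tested.

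The gene whose levels were most like those of *SLCO2A1* over the 9 Hypome 1 libraries was *APOE*, a lipid carrier (Pearson r = 0.970, Spearman rho = 0.967). It averaged 4.56 TMM CPM in Hom, 16.2 in Het and 15.6 in WT. The next 4 by Pearson correlation were *GORASP2* (0.968), a Golgi stacking protein, *NFATC2IP* (0.965), *AHRR* (0.964), a repressor of the aryl hydrocarbon receptor, and *TEX11* (0.959). *AHRR* averaged 0.768 TMM CPM in Hom, 4.75 in Het and 6.32 in WT, whereas *GORASP2* averaged 100 in Hom, 114 in Het and 116 in WT. *TEX11* was near the floor, at 0.068, 0.138, 0 and 0 TMM CPM in Hom and means of 0.349 in Het and 0.384 in WT. It passed the filter through libraries other than Hom, so its likeness is a description. By Spearman correlation *GORASP2* and *AHRR* were tied at rank 267, so their place depends on the measure. The points of *SLCO2A1* fall into 2 clusters, Hom and the rest, and a gene with the same step has a high correlation whatever it does within them. Among the members the correlation with *SLCO2A1* was 0.724 for *PTGS2*, 0.641 for *ABCC4* and 0.496 for *PTGS1*. It was -0.312 for *PTGES*, -0.568 for *PTGER4*, -0.637 for *PTGES3* and -0.769 for *HPGD*.

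**Figure D2:**
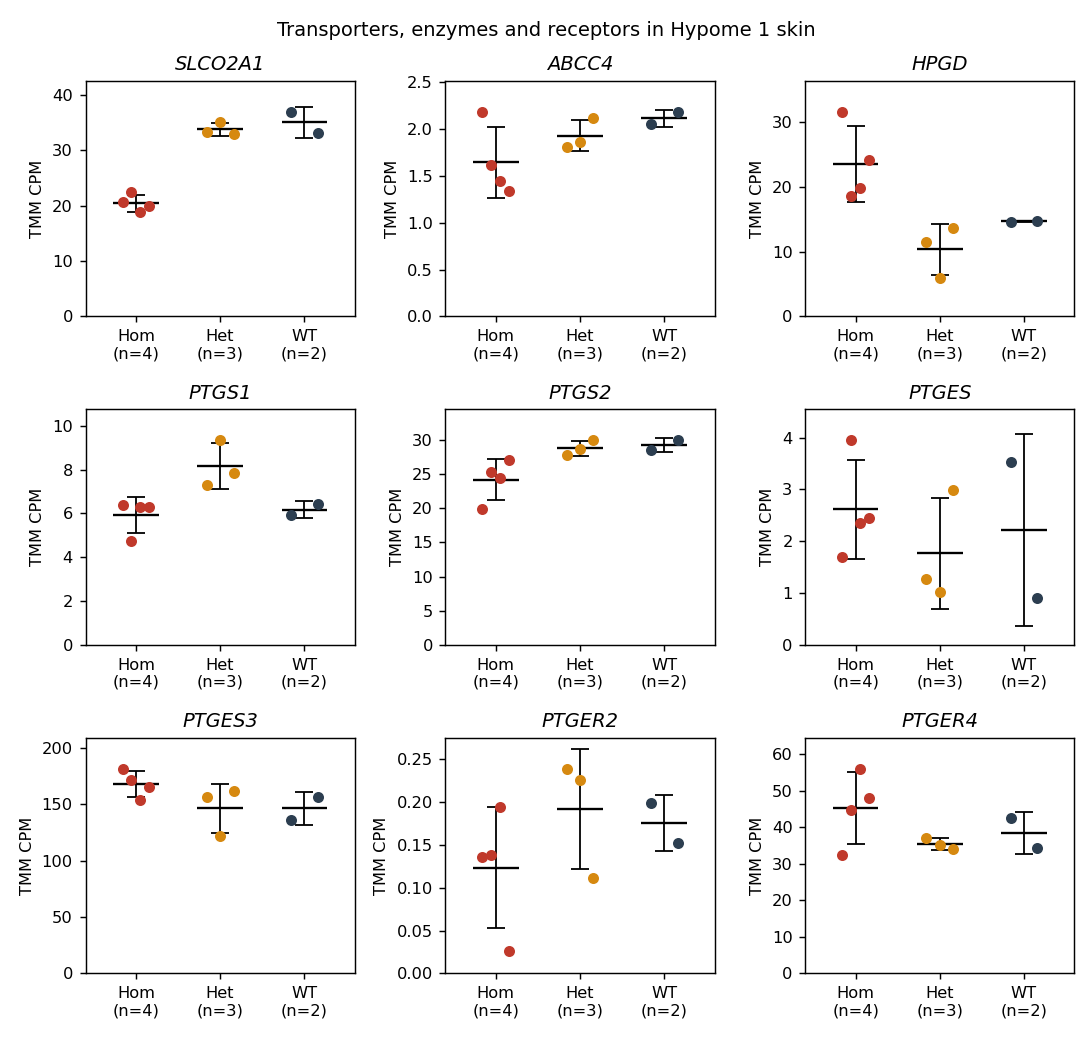
Level of each member in TMM CPM in the Hom, Het and WT libraries of Hypome 1, with 1 point per embryo, the mean as a bar and the SD as whiskers. The 4 Hom points of *SLCO2A1* (18.8 to 22.4) lie below all other points of the gene, and those of *HPGD* (18.6 to 31.6) lie above them.

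The inactivating enzyme *HPGD*, which oxidizes prostaglandins after uptake, was higher in Hom skin, the genotype in which *SLCO2A1* was lowest. It was at 31.65, 18.61, 19.86 and 24.15 TMM CPM in the Hom libraries, 11.49, 6.00 and 13.69 in the Het libraries and 14.63 and 14.78 in the WT libraries. On this scale every Hom library was above every Het and WT library, with Hom replicate 1 the highest and Het replicate 2 the lowest. The means were 23.57 ± 5.89 TMM CPM in Hom (SD, n = 4), 10.40 ± 3.96 in Het (n = 3) and 14.70 ± 0.106 in WT (n = 2). For Hom over Het the log2 fold change was 1.18 (SE 0.28, 95% interval 0.55 to 1.81), a fold of 2.27. The adjusted p of edgeR's quasi-likelihood test was 0.0995, over the threshold, while DESeq2's Wald test gave an adjusted p of 0.00164 on the 9 libraries and 0.00348 on the Hom and Het libraries alone. For Hom over WT it was 0.68 (SE 0.32, interval -0.03 to 1.39), with an adjusted p of 0.590 by edgeR and of 0.419 by DESeq2 on the 9 libraries. In TPM, Hom (17.8 to 25.9) and WT (17.0 to 18.2) overlapped. Without Hom replicates 1 and 4, the 2 highest, the log2 fold change was 0.90 for Hom over Het and 0.39 for Hom over WT. These 2 were left out for low RNA integrity, joined by replicate number with no source for the join.

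The size of the *HPGD* difference moved with the season as joined here. That join was made by replicate number, and no source states it. Of the 3 Het libraries, 2 were in a season with no Hom or WT library. In the season that held all 3 genotypes, Hom was above Het by 0.487 and above WT by 0.392 on the log2 scale, and in the other season Hom was above WT by 0.900. With season as a factor in edgeR, the log2 fold change of Hom over Het was 0.58 in place of 1.18, and that of Het over WT was 0.070 in place of -0.50. Markers of several cell types also differed between Hom and Het in TMM CPM. The summed level of the 6 of 10 listed keratinocyte markers in the table was 4260 to 4545 TMM CPM in Hom, 2295 to 3675 in Het and 3238 to 3575 in WT, with no marker at or near 0 in every library. Of the 6, 0 were called by edgeR for Hom over Het, and 3 were higher at an unadjusted p under 0.05 (9.7% of all genes). DESeq2 on the libraries compared called 2 (6.55% of all genes). In TPM the summed level of the Hom libraries (971 to 1514) took in that of Het (994 to 1354). The summed level of 4 lymphatic markers was 17.6 to 24.3 TMM CPM in Hom, 13.2 to 16.3 in Het and 16.3 to 16.8 in WT, higher in every Hom library, while in TPM Hom (8.67 to 16.8) and Het (8.37 to 11.2) overlapped. The summed level of 6 melanophore markers was 1561 to 2114 TMM CPM in Hom, 954 to 1552 in Het and 1649 to 2017 in WT, so Hom and WT overlapped. In TPM the Hom range (1017 to 2145) took in that of Het (1145 to 1572). Of these 6, 4 were higher for Hom over Het at an unadjusted p under 0.05 by edgeR (9.7% of all genes). The part of these markers in the *HPGD* values was not tested.

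The ratio of the 2 genes of the clearance step within a library needs no scaling between libraries. There were 0.831 to 1.53 counts of *HPGD* per count of *SLCO2A1* in Hom, 0.171 to 0.416 in Het and 0.396 to 0.446 in WT. In the Hypome 3 Het libraries there were 0.222 to 0.385. The lowest Hom ratio was thus above the highest of the other 8 libraries. Since *SLCO2A1* in the denominator was chosen for its difference, this ratio is a description with no test. By length, *HPGD* was 1.56 to 2.87 times *SLCO2A1* in Hom, 0.321 to 0.784 times in Het, 0.745 to 0.841 times in WT and 0.418 to 0.726 times in Hypome 3 Het.

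**Figure D3:**
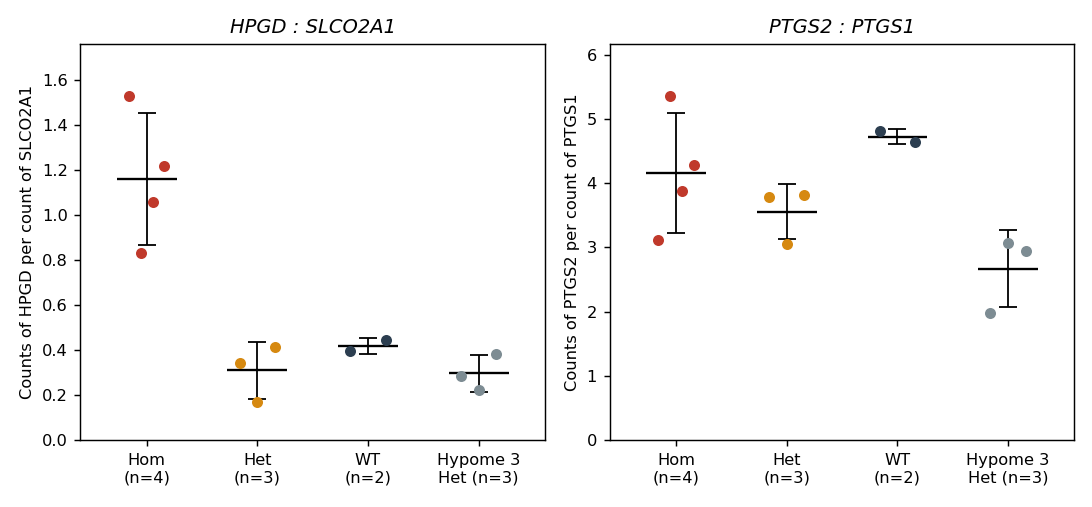
Counts of *HPGD* per count of *SLCO2A1* (left) and of *PTGS2* per count of *PTGS1* (right) within each library, with 1 point per embryo, the mean as a bar and the SD as whiskers. The Hom libraries range from 0.831 to 1.53 on the left and the others reach 0.446, whereas the Hom range on the right (3.11 to 5.36) overlaps those of Het and WT.

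The cyclooxygenases make prostaglandin H2, *PTGS1* as the form usually called constitutive and *PTGS2* as the inducible form. *PTGS2* was at 19.93, 25.36, 24.41 and 26.99 TMM CPM in Hom, 27.73, 28.63 and 29.94 in Het and 28.45 and 29.9 in WT. All Hom libraries were below all others, and Hom replicate 4 was close to the lowest Het library. The log2 fold change was -0.27 for Hom over WT (SE 0.14, interval -0.58 to 0.04) and -0.25 for Hom over Het (SE 0.12, interval -0.53 to 0.03), with adjusted p-values of 0.640 and 0.319 by edgeR. Within seasons, Hom differed from WT by -0.365 and -0.193 and from Het by -0.266 on the log2 scale. *PTGS1* was at 6.40, 4.73, 6.29 and 6.29 TMM CPM in Hom, 7.32, 9.34 and 7.83 in Het and 5.92 and 6.44 in WT. The Het libraries were the highest, and Hom and WT overlapped. In CPM of the library total *PTGS1* was lower in every Hom library (4.55 to 6.38) than in both WT libraries (6.41 and 6.79). The log2 fold change of *PTGS1* was -0.46 for Hom over Het (SE 0.18, unadjusted p = 0.0269 and adjusted p = 0.221 by edgeR), -0.06 for Hom over WT (SE 0.20, interval -0.51 to 0.39) and 0.40 for Het over WT (SE 0.22, interval -0.08 to 0.88). In the season with both, Hom differed from Het by -0.514.

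There were more counts of *PTGS2* than of *PTGS1* in each library. The ratio was 3.11 to 5.36 in Hom, 3.06 to 3.82 in Het and 4.64 to 4.81 in WT, and 1.98 to 3.07 in Hypome 3 Het. The Hom range took in the Het range but for its lower end, and the WT range lay inside it.

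The levels of the terminal synthases *PTGES* and *PTGES3* overlapped between the genotypes. *PTGES*, the inducible membrane-bound synthase of prostaglandin E2, was at 1.703 to 3.95 TMM CPM in Hom, 1.03 to 3.00 in Het and 0.914 to 3.53 in WT. The 2 WT libraries thus differed by more than the means of the genotypes, and the interval of the log2 fold change of Hom over WT was -1.11 to 1.60. *PTGES3*, the cytosolic synthase, averaged 168 ± 11.5 TMM CPM in Hom, 147 ± 21.6 in Het and 147 ± 14.5 in WT (SD). Its log2 fold change was 0.20 for Hom over WT (SE 0.16) and 0.20 for Hom over Het (SE 0.14), and the groups overlapped. In CPM of the library total the Hom mean was 156.1 against 156.4 in WT, so its direction depends on the scaling.

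Of the 2 receptors, which both raise cyclic AMP, *PTGER4* carried nearly all counts. *PTGER4* was at 32.43, 44.58, 55.99 and 48.0 TMM CPM in Hom, 37.15, 35.13 and 33.96 in Het and 42.54 and 34.38 in WT. Of the Hom libraries 3 were above all Het and WT libraries, and Hom replicate 1 was below them. In CPM of the library total Hom replicate 2 (42.9) was below WT replicate 1 (46.1), so 2 Hom libraries were above all others. The log2 fold change was 0.24 for Hom over WT (SE 0.19, interval -0.20 to 0.67) and 0.35 for Hom over Het (SE 0.17, interval -0.03 to 0.74), with adjusted p-values of 0.780 and 0.311 by edgeR. *PTGER2* had 1 to 7 counts in the Hom libraries, 4 to 13 in Het and 7 in both WT libraries, and 3 to 9 in Hypome 3 Het. It did not pass the filter on low counts, and a difference between genotypes was not detectable at this depth.

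The export transporter *ABCC4* was low in all groups, with 52 to 70 counts in Hom, 74 to 98 in Het and 72 and 100 in WT. Its level was 2.18, 1.61, 1.44 and 1.33 TMM CPM in Hom, 1.80, 1.86 and 2.11 in Het and 2.05 and 2.18 in WT. On this scale Hom replicate 1 was the highest of the 9, and the other 3 Hom libraries were below all Het and WT libraries. The log2 fold change was -0.37 for Hom over WT (SE 0.32, interval -1.07 to 0.34) and -0.23 for Hom over Het (SE 0.28, interval -0.86 to 0.40), with adjusted p-values of 0.787 and 0.684 by edgeR. In CPM of the library total all Hom libraries (1.295 to 1.7) were below all Het and WT libraries (1.88 to 2.295), so whether the groups overlap depends on the scaling of Hom replicate 1.

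**Figure D4:**
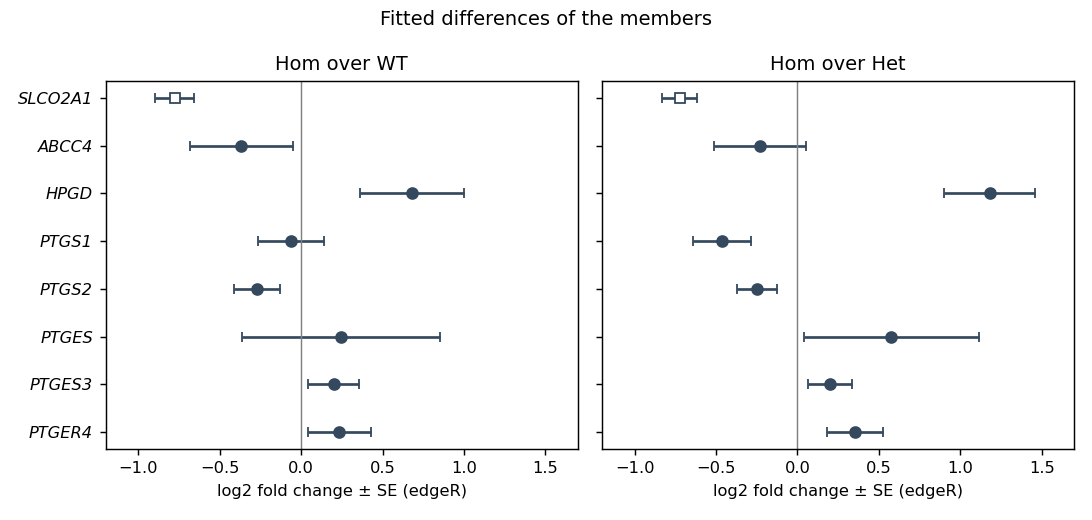
Log2 fold change of each member that passed the filter, with its standard error, for Hom over WT (left) and Hom over Het (right). The open square is *SLCO2A1* (-0.78 and -0.72), which was chosen for its difference, and *HPGD* has the largest value above 0 (0.68 and 1.18).

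Of the 8 members other than *SLCO2A1*, 7 passed the filter, and 0 of them passed an adjusted p of 0.05 by edgeR in any of the 3 comparisons. The share of all 16751 genes called by edgeR was 0.0179% for Hom over WT, 0.0358% for Hom over Het and 0% for Het over WT, so few genes of any kind were called. At an unadjusted p under 0.05 there were 0 members for Hom over WT (8.53% of all genes), 2 for Hom over Het (17.8% of all genes), namely *HPGD* higher (9.7% of all genes) and *PTGS1* lower (8.13%), and 0 for Het over WT (1.53%). DESeq2 called *HPGD* alone for Hom over Het, where it called 7.1% of the genes on the 9 libraries (4.61% higher in Hom) and 6.55% on the Hom and Het libraries (4.31% higher). It called 0 members for Hom over WT, against 1.31% and 2.67% of the genes, and 0 for Het over WT, against 0% and 0.0103%. Hom and WT did not overlap in TMM CPM for 2 of the 7 (19.5% of all genes), *HPGD* higher (9.94%) and *PTGS2* lower (9.52%). Hom and Het did not overlap for 3 of the 7 (17.2%), *HPGD* higher (8.93%) and *PTGS1* and *PTGS2* lower (8.23%). Het and WT did not overlap for 2 of the 7 (12.9%), *PTGS1* higher (6.9%) and *HPGD* lower (6.02%). The median log2 fold change of the 7 was 0.199 for Hom over WT and 0.199 for Hom over Het, beside 0.014 and -0.004 over all genes.

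The levels per length in Hypome 3 Het skin overlapped those of Hypome 1 Het for *HPGD* and *PTGS2* and not for *PTGER4* and *PTGES*. The share of all genes without such an overlap was not computed, so this is a description and not a result about the members. *HPGD* was at 10.5 to 16.7 TPM in Hypome 3 Het and at 7.84 to 16.2 TPM in Hypome 1 Het. *PTGS2* was at 11.8 to 12.4 TPM in Hypome 3 Het and at 12.1 to 14.4 TPM in Hypome 1 Het. *PTGER4* was at 31.6 to 37.4 TPM in Hypome 3 Het, above the 21.1 to 24.2 TPM of Hypome 1 Het, and *PTGES* at 2.06 to 2.79 TPM, above 0.774 to 2.04 TPM. The *PTGES* ranges nearly touched (2.061 against 2.036 TPM), on 64 to 75 counts in Hypome 3 Het and 41 to 108 in Hypome 1 Het. *PTGS1* was at 3.07 to 4.96 TPM in Hypome 3 Het and at 2.55 to 3.77 TPM in Hypome 1 Het. These tables differ in morph, depth and the share of even counts, and the levels are set side by side only. RNA integrity also differs, as the study describes it as high for Hypome 3 and as varied for Hypome 1.

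Around the members, 6 lists of the wider eicosanoid pathway with 86 genes were examined, which matched 50 genes of the tables by symbol and 43 unnamed loci (LOC) that the annotation describes as like a listed gene. Of these 93 genes 76 passed the filter, and 0 were called by edgeR in any comparison. For Hom over Het, DESeq2 on the 9 libraries called 9 higher and 2 lower (4.61% and 2.5% of all genes), and for Hom over WT 2 higher and 1 lower (0.99% and 0.318%). At an unadjusted p under 0.05 by edgeR there were 21 higher and 4 lower for Hom over Het, 32.9% of the 76 beside 17.8% of all genes, and 9 higher and 5 lower for Hom over WT, 18.4% beside 8.53% (4.97% higher and 3.56% lower over all genes). The 21 include *PTGR1*, which was known from the study when the lists were written. They also include *LOC129338828(ALOXE3-like)* and *LOC129335960(SLCO1A2-like)*, which passed the filter through their Hom libraries alone. Several more are neighbouring copies of the cytosolic phospholipase A2 family on scaffold 2. These are not independent genes, so the counts and shares are a description of the lists. With season as a factor, 671 of all genes had an unadjusted p under 0.05 by edgeR for Hom over Het, in place of 2987. The Hom over Het counts of the lists are given without season, so genotype and season cannot be told apart in them.

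Genes that release arachidonic acid from membrane lipids were the largest list tested. For Hom over Het, DESeq2 called 3 of its 10 tested symbols and 3 of its 13 tested LOC genes, all higher in Hom (4.61% of all genes). The 3 LOC genes are neighbouring copies of 1 family on scaffold 2, so they do not count as separate genes of the pathway. For Hom over WT it called 0 of the 10 and 1 of the 13 (0.99% of all genes higher). *PLA2G4A*, the main cytosolic phospholipase A2 of prostaglandin synthesis in mammals, averaged 61.7 ± 10.7 TMM CPM in Hom, 38.2 ± 9.80 in Het and 44.6 ± 4.25 in WT, with a log2 fold change for Hom over Het of 0.69 (SE 0.20) and adjusted p-values of 0.122 by edgeR and 0.0224 by DESeq2. It lies 61528 bases from *PTGS2* on scaffold 5 with 1 gene between them. With season as a factor its log2 fold change was 0.20. *MGLL*, the monoacylglycerol lipase, was at 60.8 to 65.0 TMM CPM in Hom, 21.0 to 49.0 in Het and 37.9 to 55.7 in WT (adjusted p for Hom over Het of 0.120 by edgeR and 0.0116 by DESeq2). Its log2 fold change for Hom over Het was 0.892, and lay between 0.457 and 0.968 over the alternatives.

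A run of 13 genes of the cytosolic phospholipase A2 family lies on scaffold 2 between 62326597 and 63732440 and holds several of these genes. *PLA2G4D* was at 50.93, 28.18, 13.08 and 42.19 TMM CPM in Hom, 3.81, 0.276 and 6.19 in Het and 8.91 and 2.66 in WT. All Hom libraries were above all others, and the Hom libraries differed among themselves by several times. Its log2 fold change was 3.30 for Hom over Het (SE 0.85) and 2.55 for Hom over WT (SE 0.96), with adjusted p-values by edgeR of 0.111 and 0.508 and by DESeq2 on the 9 libraries of 0.0131 and 0.319. The log2 fold change of Hom over Het was 4.01 without Het replicate 3 and 2.23 with season as a factor, and that of Hom over WT was 3.66 without WT replicate 1 and 1.91 without WT replicate 2. Without Hom replicates 1 and 4, its 2 highest libraries, that of Hom over WT was 1.85. These 2 were left out for low RNA integrity, which was joined by replicate number with no source for the join. *LOC129323395(PLA2G4B-like)* averaged 11.5 ± 4.29 TMM CPM in Hom, 1.63 ± 1.18 in Het and 1.54 ± 1.28 in WT, and DESeq2 on the 9 libraries called it higher in Hom than in Het (adjusted p = 0.00487) and than in WT (adjusted p = 0.041). Its adjusted p-values by edgeR were 0.099 and 0.419. Its log2 fold change of Hom over WT was 2.91, against 4.17 without WT replicate 1 and 2.23 without WT replicate 2. *LOC129323399(PLA2G4E-like)* averaged 65.7 TMM CPM in Hom, 38.0 in Het and 38.7 in WT, and *LOC129323401(PLA2G4E-like)* 12.9 in Hom, 6.25 in Het and 7.70 in WT. The log2 fold change of *LOC129323399(PLA2G4E-like)* for Hom over WT was 0.763, and 0.446 without Hom replicates 1 and 4. *LOC129324358(PLA2G4E-like)* averaged 42.9 in Hom, 33.0 in Het and 42.3 in WT and was not called by either tool. These are neighbouring copies of 1 family, counted from uniquely mapped reads, so how reads divided between them is uncertain.

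Downstream of *HPGD*, *PTGR1* reduces the keto form of the inactivated prostaglandin. It was at 42.21, 42.22, 44.86 and 59.62 TMM CPM in Hom, 28.36, 3.04 and 22.55 in Het and 28.65 and 26.03 in WT, so that all Hom libraries were above all others and Het replicate 2 was far below the rest. DESeq2 called it for Hom over WT when only these libraries were used (adjusted p = 0.0117) and not on the 9 libraries (0.823), and edgeR gave adjusted p-values of 0.766 for Hom over WT and 0.229 for Hom over Het. *PTGR1* is also in the table of differential expression of the study, and this was known when the lists were written. *LOC129329209(ACOX2-like)*, named for a peroxisomal oxidase, averaged 70.8 ± 17.7 TMM CPM in Hom, 133 ± 27.1 in Het and 117 ± 24.7 in WT (adjusted p for Hom over Het of 0.099 by edgeR and 0.00206 by DESeq2). Its log2 fold change for Hom over Het was -0.914, and lay between -0.915 and -0.505 over the alternatives. Another gene of the same description, *LOC129326958(ACOX2-like)*, averaged 81.2 in Hom, 62.3 in Het and 66.4 in WT. Of the 5 tested symbols of the inactivation list, 3 were higher for Hom over Het at an unadjusted p under 0.05 by edgeR (9.7% of all genes), and the median log2 fold change was 0.377, beside -0.004 over all genes. *PTGR1* is among the 3, so this count is in part a description of a gene known beforehand. The 2 tested LOC genes of the list went opposite ways, with a median of -0.266.

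The other prostanoid receptors and terminal synthases gave no call by either tool. Of the 5 tested symbols of the receptor list, 0 were higher and 2 were lower for Hom over WT at an unadjusted p under 0.05 by edgeR (4.97% and 3.56% of all genes). The 2 were *TBXA2R*, a receptor, and *PTGFRN*, which is named as a regulator of a prostanoid receptor and is not itself one. The median log2 fold change of the 5, with *PTGFRN* included, was -0.694, beside 0.014 over all genes. Among the other transporters of the SLCO and ABCC families, *LOC129340179(ABCC1-like)* averaged 24.4 TMM CPM in Hom, 15.03 in Het and 15.5 in WT, and DESeq2 on the 9 libraries called it for Hom over Het (adjusted p = 0.00709, against 0.103 by edgeR). *LOC129335960(SLCO1A2-like)* was below 0.5 TMM CPM in every library. Of the 11 tested symbols of these families 0 were called for Hom over WT by either tool, 1 was higher and 1 lower at an unadjusted p under 0.05 (4.97% and 3.56% of all genes), and their median log2 fold change was -0.156, beside 0.014 over all genes.

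In the lipoxygenase and epoxygenase branch, which makes leukotrienes and related lipids from the same arachidonic acid, *LTA4H*, the leukotriene A4 hydrolase, averaged 57.6 ± 5.26 TMM CPM in Hom, 36.1 ± 4.21 in Het and 42.4 ± 6.78 in WT. Its log2 fold change for Hom over Het was 0.67 (SE 0.13), with adjusted p-values of 0.0821 by edgeR and 0.000811 by DESeq2. *LOC129338873(ALOX15B-like)* averaged 0.258 TMM CPM in Hom, 1.02 in Het and 2.40 in WT, and DESeq2 on the 9 libraries called it lower in Hom than in WT (adjusted p = 0.00277) and than in Het (adjusted p = 0.0399). Its log2 fold change of Hom over WT was -3.21, against -2.27 without WT replicate 2. The most abundant gene of that description, *LOC129340490(ALOX15B-like)*, went the other way, at 23.7 in Hom, 8.63 in Het and 18.9 in WT, and neither tool called it. *LOC129338828(ALOXE3-like)* was at 0.554 to 3.30 TMM CPM in Hom, at 0 in the 3 Het libraries and at 0.228 and 0 in the WT libraries. It passed edgeR's filter on low counts through its Hom libraries alone, so a difference in it was bound to be higher in Hom. DESeq2 called it in that direction in both comparisons, which is a description and not evidence of a difference. The far more abundant *LOC129338691(ALOXE3-like)* averaged 262 in Hom, 192 in Het and 231 in WT and was not called by either tool.

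**Figure D5:**
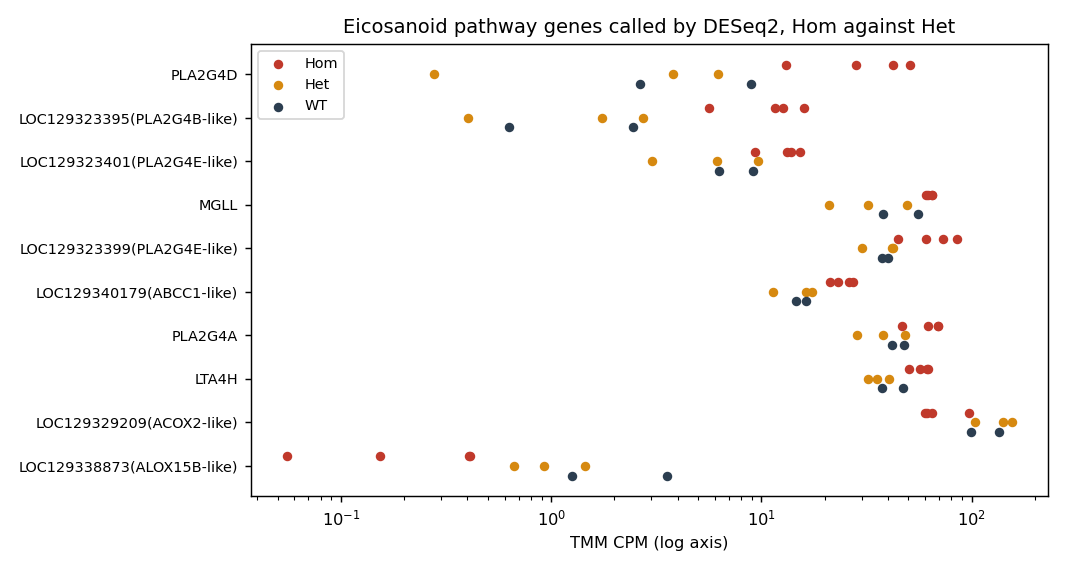
Level in TMM CPM on a log axis of the eicosanoid pathway genes that DESeq2 called between Hom and Het, with 1 point per Hom, Het and WT library (the ALOXE3-like gene, at 0 in Het, is left out). *PLA2G4D* has the widest gap between its Hom points (13.1 to 50.9) and its Het points (0.276 to 6.19), and 0 of these genes were called by edgeR.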

How the data were processed

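PolyA libraries were sequenced in pairs, and the authors mapped them with STAR 2.7.10b on an assembly they made. The deposited values are raw counts per gene from featureCounts of Subread 2.0.6, which the study describes as counting uniquely mapped pairs. How strand was set in counting is not given in the sources used here. *NEB*, whose entry spreads over 5 lines, was dropped. Even values made up 57.8% to 65.5% of mid-sized counts in each Hypome 1 library and 49.9% to 50.0% in each Hypome 3 library. The total of each Hypome 1 library was also above the highest read number that the paper gives for a leopard gecko library. Whether the Hypome 1 values count pairs or single reads is thus not known. Depth was 16826633 to 52017277 counts.

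The members and lists were chosen with earlier results of these data known. Genes were kept by edgeR's filter (minimum count 10, minimum total 15), which left 16751 genes. One quasi-likelihood model (edgeR 4.0.16, R 4.3.3, TMM, 2-sided) was fitted to the 9 Hypome 1 libraries, with Benjamini-Hochberg adjustment over all genes tested and a threshold of 0.05. It had 6 residual degrees of freedom. Standard errors were derived from the fold change and its F statistic, and DESeq2 1.42.0 was the main alternative, fitted on the 9 libraries unless said otherwise. TPM was computed from the counts and gene lengths, and correlations from log2 of CPM plus 0.1. The fit was also run on simulated counts with a common spread (dispersion) for all genes. That run cannot judge the tools on the spread that differs from gene to gene in these data.

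Named are all 9 members, the list genes past the threshold by either tool or with the 3 smallest p-values by edgeR in a comparison, and the 5 genes most like *SLCO2A1*. Some cell type markers and some other genes of the same description as a named LOC gene are given beside them. The alternatives were DESeq2, the groups compared alone, DESeq2's size factors, other filters, a replicate block, the season (read from the study's library names), halved counts, Hom replicates 1 and 4 left out for low RNA integrity, each library left out, CPM without TMM, no length, and Spearman correlation. Both season and RNA integrity were joined to the libraries by replicate number, a join that no source states. The 3 columns of the Hypome 3 table named as wild-type match no sample by name and were not used, and Hypome 3 homozygous and Hypome 2 samples were not analysed here. Replicates are separate embryos.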

Additional observations from a re-analysis of the deposited data

Results flagged for a closer look

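In the Hom libraries *PTGS1* had 1 value far from the others. Hom replicate 2 was at 4.73 TMM CPM, against 6.29 to 6.40 in the other 3, a gap that takes most of the range of the group. In CPM of the library total, where Hom replicate 2 was at 4.55, Hom replicate 1 was close to it at 4.99 and the other 2 were at 6.13 and 6.38, so the value stands apart only with TMM scaling. Of the 9 members this was the only one with such a value in TMM CPM in the Hom group. The rule used (Dixon's) was applied to that group only, and chance alone gives such a value in about 1 of 20 groups.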

How the results depend on the processing

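The count of members called, which leaves out *SLCO2A1*, was 0 for Hom over WT and for Het over WT under every alternative, and for Hom over Het it was 1 (*HPGD*) under both DESeq2 fits and 0 under the others. The log2 fold change of *SLCO2A1* lay between -0.78 and -0.72 for Hom over WT and between -0.73 and -0.65 for Hom over Het over the alternatives, and between -0.85 and -0.70 and between -0.77 and -0.68 with 1 library left out. That of *HPGD* for Hom over Het lay between 0.58 and 1.20, and between 0.90 and 1.43 with 1 library left out. For Hom over WT that of *HPGD* lay between 0.39 and 0.68, and between 0.50 and 0.78 with 1 library left out. With season as a factor the sign changed for *PTGES3* for Hom over Het (-0.0085) and, for Het over WT, for *HPGD* (0.070), *PTGS2* (0.021), *PTGES* (0.14) and *ABCC4* (0.080). Season and genotype are partly confounded, since 1 season held Het libraries only. The value of *PTGES3* for Het over WT was near 0 throughout and turned negative with DESeq2 (-0.0045 and -0.0052), DESeq2's size factors (-0.0045), no filter (-2.02e-05) and the replicate block (-0.012). For Hom over WT, *LOC129324358(PLA2G4E-like)* was at -0.034 without Hom replicates 1 and 4. With 1 library left out, signs changed within these ranges: for Hom over WT, *PTGS1* -0.12 to 0.034, *PTGES* -0.43 to 1.52 and *LOC129324358(PLA2G4E-like)* -0.048 to 0.079, and for Het over WT, *SLCO2A1* -0.13 to 0.029, *PTGS2* -0.057 to 0.017, *PTGES* -1.001 to 0.94, *PTGES3* -0.098 to 0.12 and *PTGER4* -0.26 to 0.042. The cause of these changes was not tested. Of the 9 places in the order of levels, 7 were kept when gene length was ignored, and *HPGD* and *PTGS2* changed places.

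Whether the replicate numbers pair the samples is not settled. The deviations of same-numbered libraries correlated from -0.247 to 0.182, and those of other-numbered libraries from -0.353 to 0.358. With 2 WT libraries the deviations of one mirror those of the other, so these values cannot exclude a pairing. With the replicate block edgeR called 0 members and 0 genes in all 3 comparisons, against 3, 6 and 0 genes without it. Over all genes, edgeR called 3 genes for Hom over WT, against 214 and 426 by DESeq2 on the 9 libraries and on the groups compared, and 6 for Hom over Het, against 1135 and 1039. Depth limits *PTGER2*, with at most 13 counts a library in Hypome 1, and the 2 WT libraries limit every comparison with WT.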
